A study of Yarrowia lipolytica with 12 samples.

Results

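The comparison is between wild-type *Yarrowia lipolytica* cells carrying the 4NAG plasmid and wild-type cells carrying the empty vector, both grown on N-acetylglucosamine (GlcNAc), and it covers every gene counted in these libraries. It uses 6 of the 12 RNA-Seq libraries of the series, 3 with 4NAG (pYL27-4NAG) and 3 with the vector (pYL27). The other 6, also with 4NAG, are labelled as deletions of Yl*REP1* (Yl*rep1*Δ) or Yl*NGS1* (Yl*ngs1*Δ). The wild type is strain PO1a, a leucine and uracil auxotroph. Both plasmids are centromeric and carry Yl*LEU2*. The 4NAG plasmid adds copies of the kinase gene Yl*NAG5*, the deacetylase gene Yl*DAC1*, the deaminase gene Yl*NAG1* and the transporter gene Yl*NGT1*, each behind the constitutive promoter of the actin gene Yl*ACT1*, while the chromosomal copies of these genes stay in place in both groups. All cells were collected from liquid YNB-GlcNAc medium with uracil at an OD600 of about 0.8. Separate cultures behind the 3 samples of each group are not stated in the labels or the paper, and the p-values therefore reflect only how far these 6 samples scatter, which may be technical.

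The count tables of the 2 groups list 6394 of the 6400 genes of the series when joined on gene ID. Only 14 genes are in a single table, none with more than 5 counts in a library, and a missing gene was taken as 0. After a filter on low counts, 6043 genes were tested. Library totals were between 18863469 and 21648468 counts with 4NAG and between 20335614 and 22650213 with the vector. Levels are given as CPM, read counts divided by the TMM-scaled library size, and as the mean ± SD of 3 libraries. Log2 fold changes of 4NAG over the vector (log2 FC), their standard errors (SE) and adjusted p-values come throughout from edgeR's quasi-likelihood test with Benjamini-Hochberg adjustment over the 6043 genes. A gene was called at an adjusted p under 0.05. Calls at any fold and calls of at least 2-fold, the threshold of the paper's methods, were counted separately.

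GlcNAc is an amino sugar that many fungi can use as their carbon source. In *Candida albicans* and *Y. lipolytica* it enters the cell through the transporter Ngt1, is phosphorylated by the kinase Nag5, deacetylated by Dac1 and deaminated by Nag1 to fructose-6-phosphate, which joins glycolysis. The acetate released by Dac1 and the ammonium released by Nag1 feed other pathways. The wild type makes these enzymes itself on GlcNAc, under the control of the transcription factor YlRep1 and the acetyltransferase-like protein YlNgs1. The comparison asks how far a constitutive second copy of the pathway goes along with changes in the transcriptome of cells that already use the sugar.

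The 2 plasmid genes with an identifier were read first, beside the labels. Yl*DAC1* (YALI0E20163), the deacetylase, had 1275, 1427 and 1283 CPM with 4NAG, against 1082, 1143 and 1097 CPM with the vector. It was higher with 4NAG by a log2 fold change of 0.26 (SE 0.05, 95% interval 0.15 to 0.38, adjusted p = 0.00625), a 1.20-fold difference. Yl*NAG5* (YALI0E20207), the kinase, had 854, 872 and 846 CPM with 4NAG, against 796, 782 and 787 CPM with the vector. Its libraries did not overlap either, but the log2 fold change of 0.12 (SE 0.05, 95% interval 0.02 to 0.22) had an adjusted p of 0.119. Both genes thus lay above the vector in every 4NAG library, by under 1.25-fold. So did 15.4% of all genes tested, at any fold, and the genes called higher had a median of 1.24-fold. Differences of this size therefore cannot decide whether the labels are right. The counts do not separate plasmid from chromosomal transcripts, and whether the reads of a plasmid copy include the untranslated parts counted for the gene is not known. Levels of both genes in the mutant libraries, which also carry the plasmid, are given further below. Yl*NGT1* and Yl*NAG1*, which no source used here pairs with a gene ID, are given no value. Corrected for gene length, the 2 genes already stood high with the vector: by the authors' FPKM Yl*DAC1* was number 200 of the 6043 genes with 4NAG and number 235 with the vector, and Yl*NAG5* number 337 with 4NAG and number 350 with the vector.

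The regulators and another GlcNAc-induced gene gave no call. Yl*GIG1* (YALI0F04466), related to a *C. albicans* gene induced by GlcNAc, had 272, 256 and 256 CPM with 4NAG, against 256, 250 and 278 CPM with the vector, a log2 fold change of 0.00 (95% interval −0.12 to 0.12). Yl*REP1* (YALI0D24860) had 83.2 ± 6.95 CPM with 4NAG and 85.9 ± 3.86 CPM with the vector, with a 95% interval of −0.19 to 0.10 on the log2 scale. Yl*NGS1* (YALI0E20185) had 71.3, 73.3 and 74.3 CPM with 4NAG, against 75.9, 80.0 and 91.3 CPM with the vector. These groups did not overlap, in the direction seen in 14.7% of all genes tested. The log2 fold change of −0.17 had an adjusted p of 0.132. Yl*NDT80* (YALI0B14773), a further member of the Rep1 family, had 10.5 ± 1.52 CPM with 4NAG and 10.9 ± 1.28 CPM with the vector.

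**Figure D1:**
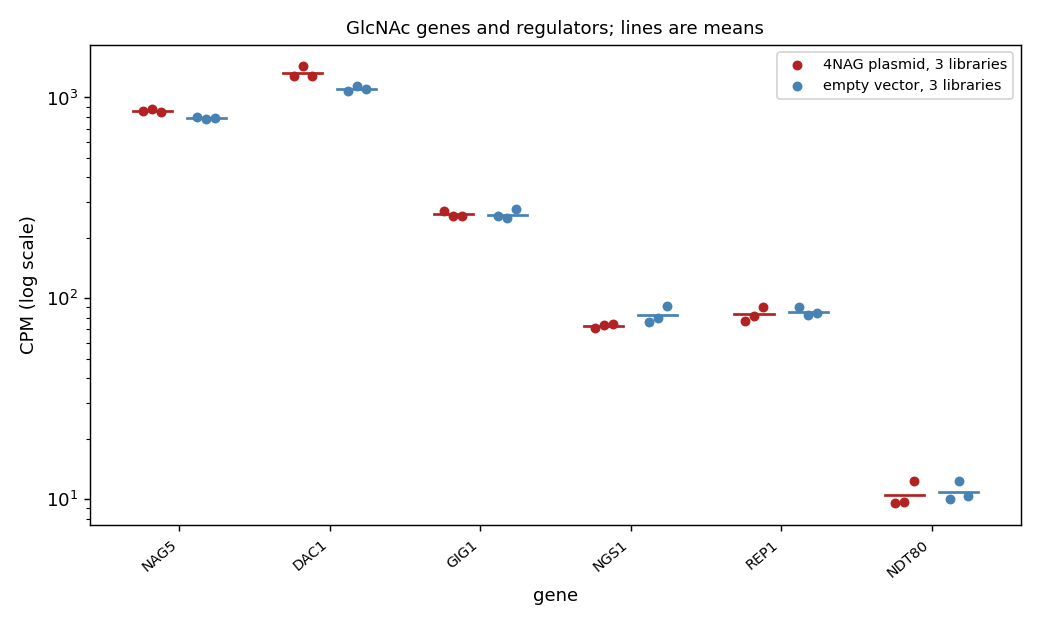
CPM on a log scale for 6 GlcNAc genes and regulators. Each point is a library, lines are means of 3, with 4NAG left of the vector. *DAC1* and *NAG5* lie slightly above the vector in every 4NAG library, while *GIG1*, *REP1* and *NDT80* overlap.

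Across the genome the differences were many and small. At any fold, 377 genes (6.24% of those tested) were higher with 4NAG and 261 (4.32%) were lower, together 10.6%. At 2-fold or more, 11 genes (0.182%) were higher and 0 (0%) were lower. At an unadjusted p under 0.05, 4 genes were lower by at least 2-fold, and DESeq2 and limma called 0. Of the genes called higher, 197 changed by under 1.25-fold, 137 by 1.25 to 1.5-fold and 32 by 1.5 to 2-fold. Of those called lower, 179 changed by under 1.25-fold, 73 by 1.25 to 1.5-fold and 9 by 1.5 to 2-fold. The median log2 fold change was 0.31 among the genes called higher and −0.27 among those called lower, against 0.00 over all genes tested. The 3 libraries of either group did not overlap in 30.1% of all genes tested, 15.4% higher with 4NAG and 14.7% lower.

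Genes with more counts were called more often. Of the 419 genes with a mean of at least 10000 counts, 37.5% were called, against 14.4% of those with 1000 to 10000, 4.32% of those with 100 to 1000, 1.09% of those with 20 to 100 and 1.15% of those with under 20. Below 100 counts small differences were mostly not detectable at this depth: 2 and 5 genes of these lowest classes were called higher and 0 were called lower. The genes called higher had a median of 192 FPKM with 4NAG and 156 FPKM with the vector, and those called lower 122 FPKM with 4NAG and 146 FPKM with the vector, while the median of all genes tested was 38.8 FPKM with 4NAG and 39.6 FPKM with the vector. By the chromosome letter of the gene ID, the share called higher lay between 4.64% on chromosome A and 7.35% on chromosome D, and the share called lower between 3.78% on C and 4.64% on A.

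Replicate 2 of the 4NAG group stood farther from the vector than the other 2. Among the genes called higher it had the highest of the 3 4NAG values in 245 of 377, and among those called lower it had the lowest in 144 of 261. Without it 211 genes were called higher and 88 lower. In the fits that each left out 1 library, 183 of the 377 and 68 of the 261 were called all 6 times. These included 8 of the 11 genes changed at least 2-fold and 41 of the 52 changed at least 1.5-fold. A single fit that also took in the 6 mutant libraries called 0 and 0 (85 and 77 at an unadjusted p under 0.05). The median SD of log2 CPM between replicates was 0.287 in the libraries labelled Yl*rep1*Δ and 0.276 in those labelled Yl*ngs1*Δ, against 0.0928 with 4NAG and 0.0898 with the vector in the wild type, and that fit uses 1 spread for all 4 groups.

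**Figure D2:**
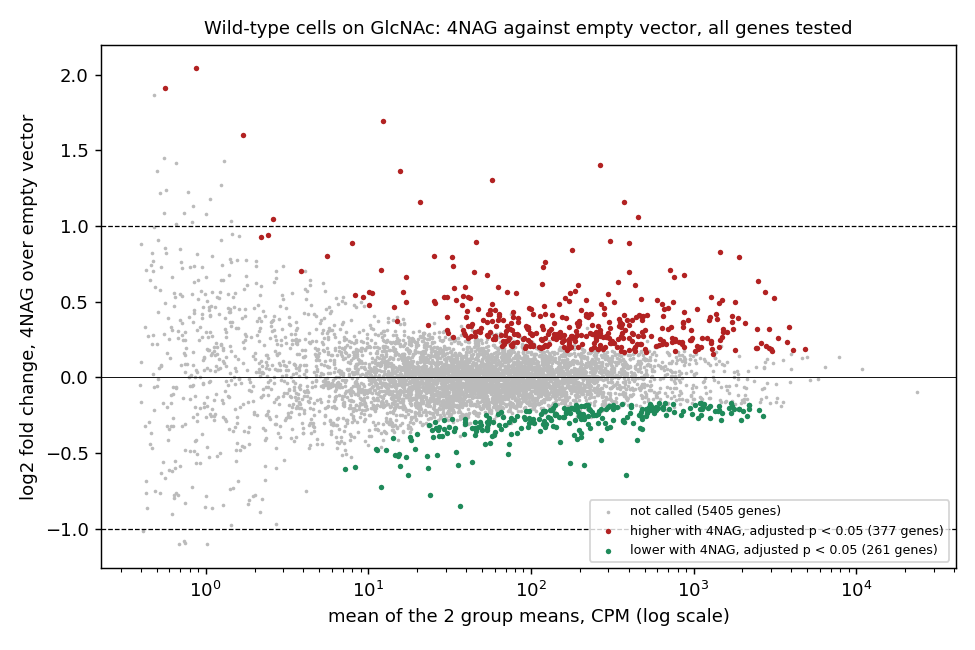
Log2 fold change of 4NAG over the vector (vertical) against the mean CPM of both groups (horizontal, log scale) for 6043 genes. The 377 genes called higher and 261 called lower lie mostly close to 0, and 11 of those called higher lie above the upper dashed line (2-fold), beside grey points of genes that were not called.

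Of the 11 genes higher by at least 2-fold, 4 had more than 50 CPM in every 4NAG library. YALI0E22088, which has no description in the sources used here, had 350, 441 and 365 CPM with 4NAG, against 151, 155 and 132 CPM with the vector. Its log2 fold change of 1.40 (SE 0.08, 2.64-fold) had the smallest p of all genes tested (adjusted p = 8.42e-08). Every 4NAG library was at more than 2 times the level of the highest vector library. YALI0D03740, described as weakly similar to YALI0E22088, had 21.8, 36.4 and 27.7 CPM with 4NAG, against 13.6, 11.0 and 13.9 CPM with the vector (log2 FC 1.16, SE 0.16, adjusted p = 0.00019). Both genes of the pair rose by over 2-fold.

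YALI0E19426 and YALI0A00154 also have no description. YALI0E19426 had 445, 620 and 483 CPM with 4NAG, against 232, 265 and 195 CPM with the vector (log2 FC 1.16, SE 0.11, adjusted p = 1.07e-05). YALI0A00154 had 503, 770 and 583 CPM with 4NAG, against 301, 342 and 248 CPM with the vector (log2 FC 1.06, SE 0.12, adjusted p = 7.32e-05). In both genes replicate 2 was the highest library of its group, with the plasmid and with the vector alike. Without a library, their log2 fold changes ran from 1.00 to 1.27 and from 0.86 to 1.18.

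The 2 next genes have a described relative. YALI0F02211, weakly similar to the 2,4-dienoyl-CoA reductase of *S. cerevisiae*, an enzyme of the oxidation of unsaturated fatty acids, had 71.5, 87.0 and 86.9 CPM with 4NAG, against 32.4, 38.8 and 27.9 CPM with the vector (log2 FC 1.31, SE 0.11, adjusted p = 3.51e-06). YALI0D10967, similar to the acid extracellular protease of *Y. lipolytica*, a secreted enzyme that degrades protein in acid medium, had 13.9, 23.3 and 19.6 CPM with 4NAG, against 7.25, 5.70 and 4.56 CPM with the vector. That is a 3.24-fold difference, a log2 fold change of 1.70 with a standard error of 0.19. YALI0E33891, with no description, had 22.5 ± 2.89 CPM with 4NAG and 8.73 ± 1.49 CPM with the vector (log2 FC 1.37).

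The remaining 4 of the 11 were near the limit of detection. YALI0D24145, weakly similar to the fluoride exporter Fex2 of *S. cerevisiae*, had 34, 26 and 24 counts with 4NAG, against 12, 7 and 3 counts with the vector. Its log2 fold change of 2.04 was the largest of all genes called, with a 95% interval of 1.02 to 3.06, and the call was lost without vector replicate 3. YALI0F20152, with some similarity to the zinc cluster regulator Asg1, had 11, 23 and 19 counts with 4NAG, against 4, 5 and 6 counts with the vector, and was called in 1 of the 6 fits that left out a library. YALI0E12045 had 58, 62 and 34 counts with 4NAG, against 17, 25 and 13 counts with the vector, and kept its call in all 6. YALI0D23837, with no known relative, had 77, 57 and 72 counts with 4NAG, against 34, 35 and 40 counts with the vector, and was called in 2 of the 6.

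**Figure D3:**
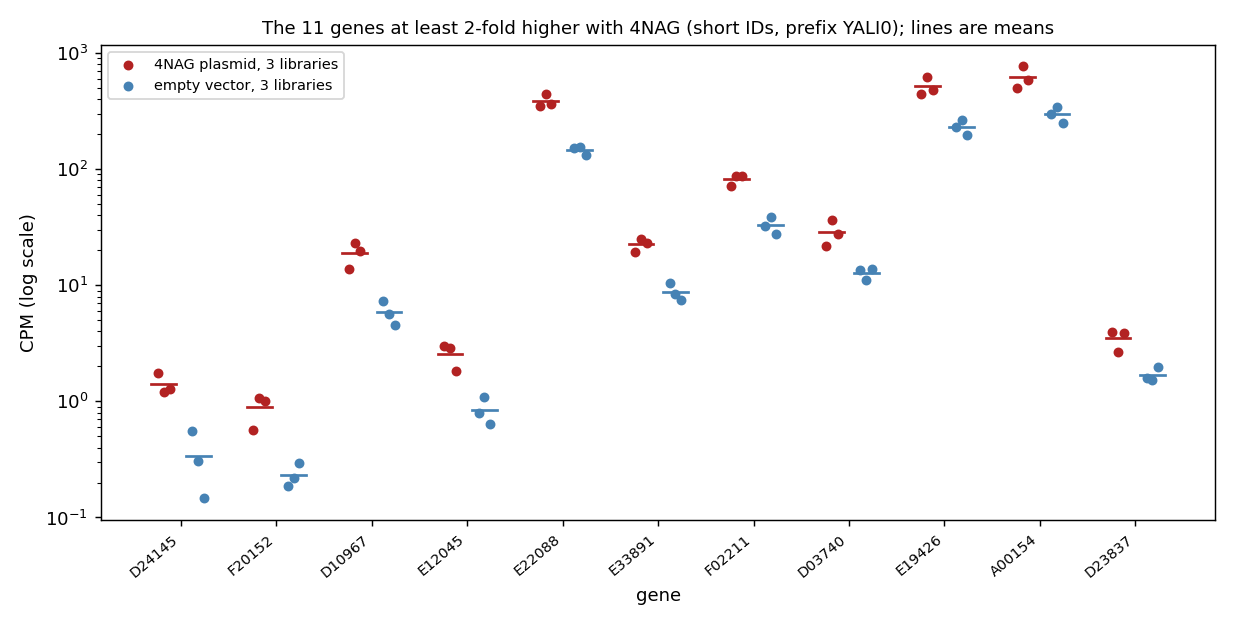
CPM on a log scale for the 11 genes called at least 2-fold higher with 4NAG, ordered by fold change, with 4NAG left of the vector. Points are libraries and lines are means of 3. The groups do not overlap in any of the 11, whose mean levels with 4NAG run from 0.887 to 619 CPM.

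The next rises were under 2-fold. YALI0E18788, without a description, had 383, 434 and 389 CPM with 4NAG, against 235, 217 and 193 CPM with the vector (log2 FC 0.90, SE 0.07, adjusted p = 3.19e-06). YALI0F18282, without a description, had 59.5 ± 2.91 CPM with 4NAG and 32.0 ± 2.16 CPM with the vector (log2 FC 0.90, adjusted p = 7.78e-06). YALI0F22187, with some similarity to a hypothetical protein of *Neurospora crassa*, had 1078 ± 64.2 CPM with 4NAG and 675 ± 50.1 CPM with the vector (log2 FC 0.67). These 3 had some of the smallest p-values of the comparison. YALI0C19866, the acid phosphatase gene *PHO2*, whose product probably serves to scavenge phosphorus, had a log2 fold change of 0.94. It had 62, 76 and 53 counts with 4NAG, against 34, 42 and 32 counts with the vector. The gene was called in 1 of the 6 fits that left out a library.

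Gene descriptions come from the study's lists of genes that differ between the mutants and these same wild-type libraries with 4NAG. They cover 575 of the 6043 genes tested. Of those 575, 12.3% were called higher and 6.61% lower, above the 6.24% and 4.32% of all genes, and since the described genes were picked with the 4NAG libraries this is no independent measure of a gene group. The groups below are read beside both backgrounds. Of the 638 genes called, 306 of those higher and 223 of those lower have no description.

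Genes of the heat shock and oxidative stress response were higher with 4NAG in 6 of the 10 described and tested, and lower in 1, with a median log2 fold change of 0.41 against 0.03 over the described genes and 0.00 over all. These genes were counted after the values were seen. Of all described genes, 12.3% were called higher and 6.61% lower. Proteins of this response refold or protect damaged proteins, or remove peroxides and other reactive compounds. YALI0F00682, similar to the methylglyoxalase Hsp31 of *S. cerevisiae*, had 2643, 3189 and 3320 CPM with 4NAG, against 2023, 2062 and 1804 CPM with the vector (log2 FC 0.64, SE 0.07, adjusted p = 7.32e-05). By FPKM it was number 20 of all genes tested with 4NAG and number 63 with the vector. YALI0D22352, similar to the Hsp70 chaperone Ssa3, had 1619, 2096 and 1850 CPM with 4NAG, against 1126, 1109 and 894 CPM with the vector (log2 FC 0.83, SE 0.09, adjusted p = 3.7e-05). The libraries of both groups lay well apart in either gene. Both genes had over 10000 counts in every library, and of all genes with a mean that high 37.5% were called.

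Both catalase T genes, whose enzyme breaks down hydrogen peroxide, were among the 6. Yl*CTT1* (YALI0E34749) had 542, 562 and 567 CPM with 4NAG, against 424, 420 and 420 CPM with the vector, a log2 fold change of 0.40 with a standard error of 0.05 (adjusted p = 9.24e-05). YALI0E34265, similar to Ctt1, had 338, 400 and 319 CPM with 4NAG, against 273, 256 and 192 CPM with the vector (log2 FC 0.55, SE 0.10, adjusted p = 0.00334). Replicates agreed closely in the first gene and less so in the second. YALI0E19272, weakly similar to the Hsp40 co-chaperone Jid1, had 118 ± 19.7 CPM with 4NAG and 88.3 ± 5.94 CPM with the vector (log2 FC 0.42). YALI0E09427, similar to thioredoxin Trx1, had 55, 72 and 44 counts with 4NAG, against 27, 33 and 37 counts with the vector. Its adjusted p of 0.0491 became 0.0558 with the replicate number as a block, and the call was lost in each fit that left out a library.

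The stress gene that was lower was Yl*YCF1* (YALI0F12089), a vacuolar transporter of glutathione conjugates, with 73.7, 61.8 and 81.1 CPM with 4NAG, against 91.1, 84.4 and 104 CPM with the vector (log2 FC −0.37, SE 0.09, adjusted p = 0.0172). Its call was lost without 4NAG replicate 2 or vector replicate 3. Yl*SOD2* (YALI0C16621), the mitochondrial superoxide dismutase, Yl*GST2* (YALI0F25575), a glutathione transferase, and YALI0E31493, whose description mentions glutathione, were not called, with log2 fold changes of 0.25, −0.16 and 0.12. Yl*MSN4* (YALI0C13750), related to the *S. cerevisiae* activator of general stress genes, is counted with the transcription factors: it had 43.9, 45.8 and 46.3 CPM with 4NAG, against 37.5, 34.6 and 30.8 CPM with the vector (log2 FC 0.40, adjusted p = 0.00655).

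**Figure D4:**
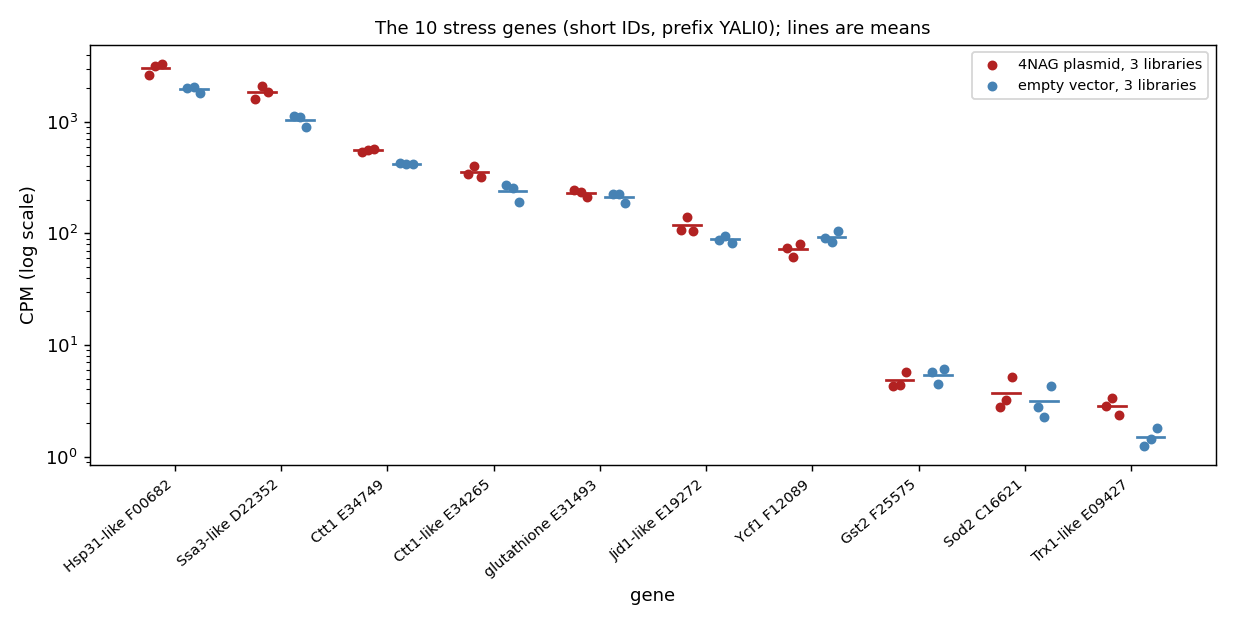
CPM on a log scale for the 10 described stress genes, ordered by their level with 4NAG, with 4NAG left of the vector. Points are libraries and lines are means of 3. The Hsp31-like, Ssa3-like, both Ctt1, Jid1-like and Trx1-like genes lie above the vector in every 4NAG library, and Ycf1 lies below it. Of all genes tested, 15.4% lie above in this way and 14.7% below.

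Formate dehydrogenase genes mostly fell with 4NAG. The enzyme oxidises formate to carbon dioxide with NAD+. The group was picked after its values were seen. Of 9 described genes, 5 were called lower and 1 higher, and 8 had a lower fitted level with 4NAG. Called lower were 4.32% of all genes tested and 6.61% of all described genes. The median log2 fold change was −0.56. Summed over the 9 genes, the level was 275, 270 and 256 CPM with 4NAG, against 383, 396 and 404 CPM with the vector, which is 0.677 of the vector mean. No source used here says how reads shared by similar genes were counted, so the values of single members are less certain than the sum.

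YALI0A12353, similar to Fdh1 of *S. cerevisiae*, had 148, 146 and 131 CPM with 4NAG, against 210, 209 and 208 CPM with the vector (log2 FC −0.56, SE 0.06, adjusted p = 2.69e-05). YALI0B19976, highly similar to the formate dehydrogenase of *Candida boidinii*, had 31.4, 22.6 and 24.8 CPM with 4NAG, against 48.0, 45.2 and 48.7 CPM with the vector. Its log2 fold change of −0.85 (SE 0.10, adjusted p = 9.34e-05) was the largest fall among all genes called. YALI0C08074 had 21.7, 17.7 and 13.9 CPM with 4NAG, against 31.4, 30.9 and 28.9 CPM with the vector (log2 FC −0.78, SE 0.13, adjusted p = 0.00098). In these 3 genes the vector libraries lay close together and all above those with 4NAG.

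YALI0F13937, also named Yl*FDH1*, had 13.6 ± 1.75 CPM with 4NAG and 21.4 ± 1.97 CPM with the vector (log2 FC −0.64). YALI0F28765 had 30.5, 34.6 and 40.4 CPM with 4NAG, against 41.4, 54.0 and 60.0 CPM with the vector (log2 FC −0.56, adjusted p = 0.00791). All 5 lower calls held in every fit that left out a library. YALI0C14344, YALI0F15983 and YALI0E15840 had log2 fold changes of −0.30, −0.45 and −0.97 and adjusted p-values of 0.0773, 0.171 and 0.0824. The exception was YALI0E14256, with 9.87, 14.0 and 12.2 CPM with 4NAG, against 8.97, 8.12 and 7.26 CPM with the vector (log2 FC 0.57, SE 0.15, adjusted p = 0.0256). That call was lost in 4 of the 6 fits that left out a library.

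**Figure D5:**
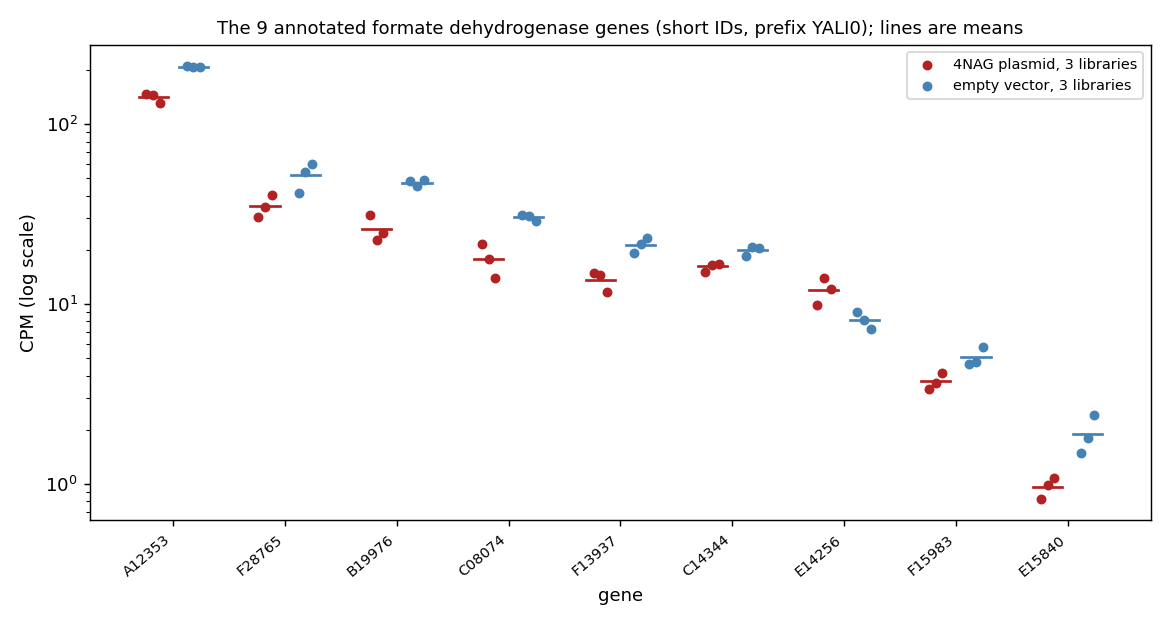
CPM on a log scale for the 9 described formate dehydrogenase genes, with 4NAG left of the vector. Points are libraries and lines are means of 3. In 8 genes every 4NAG library lies below every vector library, and in YALI0E14256 it is the other way round. Of all genes tested, 14.7% lie lower with 4NAG in this way and 15.4% higher.

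Among the other falls, a cell wall gene had the smallest p. YALI0E01210, weakly similar to the cell wall mannoprotein Tir3, had 343, 296 and 267 CPM with 4NAG, against 452, 484 and 481 CPM with the vector (log2 FC −0.65, SE 0.07, adjusted p = 5.86e-05). YALI0F22825, without a description, had 195, 161 and 152 CPM with 4NAG, against 246, 251 and 263 CPM with the vector (log2 FC −0.58, SE 0.08, adjusted p = 0.000169). YALI0B19800, without a description, had 230 ± 3.60 CPM with 4NAG and 307 ± 21.1 CPM with the vector (log2 FC −0.41). In these 3 genes the groups lay far apart. Of the other large falls, YALI0E31603, YALI0A07623, YALI0E19943, YALI0E18502 and YALI0E32901 have no description. They had log2 fold changes of −0.73, −0.60, −0.60, −0.59 and −0.58. YALI0D06149, similar to the lipid binding protein Pry1, had 6.66 ± 0.584 CPM with 4NAG and 10.0 ± 1.11 CPM with the vector (log2 FC −0.59). The calls of YALI0E31603, YALI0A07623 and YALI0D06149 were lost in 5, 4 and 3 of the 6 fits that left out a library.

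The carbon pathways next to GlcNAc gave single calls in lists of few genes. Of all described genes, 12.3% were called higher and 6.61% lower. Over all genes tested these shares were 6.24% and 4.32%. Yl*PDC1* (YALI0D10131), pyruvate decarboxylase, which makes acetaldehyde from the product of glycolysis, had 2264, 2630 and 2305 CPM with 4NAG, against 1378, 1627 and 1143 CPM with the vector (log2 FC 0.80, SE 0.09, adjusted p = 7.32e-05). It was 1 of 2 described genes in the glycolysis list, although its enzyme acts after glycolysis. The other, a putative triosephosphate isomerase (YALI0F01584), was not called (log2 fold change 0.22, adjusted p = 0.145). Of the acetate, glyoxylate and gluconeogenesis genes, 1 of 3 tested was lower and 0 were higher. This was YALI0C23617, a Gpr1 protein of the adaptation to acetic acid, with 170, 177 and 172 CPM with 4NAG, against 210, 214 and 237 CPM with the vector (log2 FC −0.35, adjusted p = 0.00163). YALI0C23298, also described as *GPR1*, had 2.36 CPM with 4NAG and 1.91 CPM with the vector on average. It was not called (log2 FC 0.31, adjusted p = 0.683). Yl*PCK1* (YALI0C16995), the first enzyme of gluconeogenesis, had 1055 CPM with 4NAG and 975 CPM with the vector on average (log2 FC 0.11, adjusted p = 0.286).

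Of 13 genes of ammonium and amino acid use, 0 were higher and 1 was lower, the urea and polyamine transporter gene Yl*DUR3* (YALI0B04202; log2 fold change −0.33, adjusted p = 0.0409). This 1 lower gene is 7.69% of the list, near the 6.61% called lower of all described genes (4.32% of all genes tested). Called higher were 12.3% of the described genes and 6.24% of all. The call of Yl*DUR3* was lost without 4NAG replicate 2 or 3 or vector replicate 3, and in limma with sample quality weights. YALI0E27203, similar to the ammonium permease Mep2 of *C. albicans*, had 1.83 ± 0.494 CPM with 4NAG and 3.60 ± 1.23 CPM with the vector, with an adjusted p of 0.054. Of 4 sugar transporter genes and 2 genes of chitin synthesis, 0 were called in either direction, with median log2 fold changes of −0.06 and −0.02.

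Secreted and lipid enzymes changed in few members. The counts of this paragraph stand beside 12.3% called higher and 6.61% called lower of all described genes. Of all genes tested, 6.24% were called higher and 4.32% lower. Of 11 protease and lipase genes tested, 1 was higher, the acid protease gene YALI0D10967 above, and 1 was lower. The lower gene, YALI0D17842, is weakly similar to the mitochondrial phospholipase Cld1, which is not a secreted enzyme, and had a log2 fold change of −0.48 (adjusted p = 0.0165). *LIP8* (YALI0B09361), a triacylglycerol lipase, had 3.14 CPM with 4NAG and 3.11 CPM with the vector on average. Of 4 genes matched by alkane and fatty acid oxidation, a list that does not hold the reductase-like gene YALI0F02211 (log2 FC 1.31, called higher), 0 were higher and 1 was lower: the cytochrome P450 gene *ALK1* (YALI0E25982), which hydroxylates alkanes, with 20.4, 17.5 and 19.0 CPM with 4NAG, against 25.5, 26.5 and 29.4 CPM with the vector (log2 FC −0.52, adjusted p = 0.00334). Not all 4 matched genes encode oxidation enzymes. YALI0C02387 is the transcription factor gene *YAS1*, and YALI0B06248 is described as similar to Alk1 but as a protein kinase. Of 11 genes of iron, copper and other metals, 1 was higher, the metallothionein gene *MTP2* (YALI0C22394), whose product binds copper, with 421 ± 26.7 CPM with 4NAG and 339 ± 9.26 CPM with the vector (log2 FC 0.31).

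The next lists are the transcription factor and cell wall genes that the paper groups by their response in the mutants. The study chose these lists with the same 4NAG libraries. Of 28 transcription factor genes tested, 2 (7.14%) were higher and 1 (3.57%) was lower, with a median log2 fold change of −0.01. Over all genes tested the shares were 6.24% and 4.32%. The higher ones were YALI0F20152 (log2 FC 1.91) and Yl*MSN4* (0.40), both given above. The lower one, YALI0F16511, weakly similar to the repressor Xbp1, had a log2 fold change of −0.33 at an adjusted p of 0.0498, which was 0.052 with the replicate number as a block, and its call was lost in 5 of the 6 fits that left out a library. Of 35 cell wall protein genes, 4 (11.4%) were higher and 2 (5.71%) were lower, with a median of −0.01. These shares were near the 12.3% and 6.61% of all described genes. The higher ones beside the acid protease gene YALI0D10967 (log2 FC 1.70) were YALI0D27214, similar to a *Y. lipolytica* cell wall protein (log2 FC 0.80), YALI0C23452, similar to the flocculin Flo11 (0.55), and YALI0A17919, similar to the covalently bound wall protein Tos1 (0.27). The lower ones were YALI0E01210 and YALI0B18194, related to the hyphal wall protein Hyr1 of *C. albicans* (−0.33). The calls of YALI0D27214, YALI0C23452 and YALI0B18194 were lost in 3, 4 and 3 of the 6 fits that left out a library.

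*Y. lipolytica* switches between a yeast form and filaments, so 10 genes were read as possible markers of the filament form. All 10 are among the genes that the paper lists as higher in Yl*rep1*Δ than in these same 4NAG libraries. The paper ties only some of its listed genes to filamentation. The 10 are therefore no independent measure of cell form. Of the 10 markers, 1 (10%) was called higher, the Flo11-like gene YALI0C23452, and 0 were called lower. The shares were 12.3% and 6.61% over all described genes, and 6.24% and 4.32% over all genes tested. Their summed level was 121 to 133 CPM with 4NAG and 116 to 125 CPM with the vector, so the ranges overlapped. Markers at higher levels, such as *MHY1*, weigh most in this sum. Of the 10, 7 had a higher fitted level with 4NAG and 3 a lower one. Among the uncalled, the Flo11-like gene YALI0A00176 had a log2 fold change of 0.73 (adjusted p = 0.194). The Cwp1-like gene YALI0E31108 had 0.48 (adjusted p = 0.125). Yl*CBF1* (YALI0B13354) and the Flo11-like gene YALI0E18722 had 0.14 each. The 3 lower ones were Yl*AAF2* (YALI0E06105; log2 FC −0.35, adjusted p = 0.180), Yl*WOR4* (−0.33, adjusted p = 0.630) and the Tir3-like gene YALI0F07535 (−0.26, adjusted p = 0.606). *MHY1* (YALI0B21582), a zinc finger factor needed for filaments, had 54.7 ± 3.05 CPM with 4NAG and 54.0 ± 4.61 CPM with the vector (log2 FC 0.02, 95% interval −0.15 to 0.18). Yl*WOR4* (YALI0F19822) had 17, 32 and 31 counts with 4NAG, against 47, 41 and 22 counts with the vector. *HOY1* (YALI0A18469), a homeobox gene of hyphal growth, had 26.8 ± 2.92 CPM with 4NAG and 22.2 ± 0.994 CPM with the vector, at an adjusted p of 0.0951. No marker was at 0 in both groups.

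Further described genes, named here after their values were seen, rose with 4NAG by under 2-fold. Yl*GPH1* (YALI0F04169), glycogen phosphorylase, which releases glucose units from glycogen, had 480, 588 and 493 CPM with 4NAG, against 290, 309 and 245 CPM with the vector (log2 FC 0.89, adjusted p = 1.07e-05). Yl*ERG3* (YALI0D20878), a sterol desaturase of ergosterol synthesis, had 430, 525 and 529 CPM with 4NAG, against 280, 337 and 297 CPM with the vector (log2 FC 0.70, adjusted p = 5.85e-05). Both enzymes lay above the vector in every library. Yl*SSU1* (YALI0E24167), a sulfite pump, had 128, 204 and 129 CPM with 4NAG, against 85.8, 107 and 79.2 CPM with the vector (log2 FC 0.76, adjusted p = 0.00336), with replicate 2 the highest of each group. YALI0E18634, similar to the mitochondrial malic enzyme, had 561 ± 39.6 CPM with 4NAG and 391 ± 46.3 CPM with the vector (log2 FC 0.52). Yl*SLP3* (YALI0F13013), related to a stress protein of the *C. albicans* plasma membrane, had 141 ± 8.02 CPM with 4NAG and 91.9 ± 5.94 CPM with the vector (log2 FC 0.62).

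Falls named in the same way were smaller. Yl*UGA1* (YALI0E18238), the aminotransferase that starts the use of 4-aminobutyrate, had 724, 766 and 808 CPM with 4NAG, against 910, 938 and 886 CPM with the vector (log2 FC −0.25, adjusted p = 0.00689). Yl*UGA2* (YALI0F26191), the dehydrogenase of the next step, had 190 ± 5.24 CPM with 4NAG and 217 ± 6.00 CPM with the vector (log2 FC −0.19, adjusted p = 0.0315). Both falls were under 1.25-fold. The 2 genes of this short pathway were named after their values were seen, so their common direction is no independent result. YALI0B21780 and YALI0B07117, both similar to the glycerol dehydrogenase Gcy1, had log2 fold changes of −0.36 and −0.52. YALI0F21109 and YALI0A09383, both weakly similar to the nicotinic acid permease Tna1, had −0.52 and −0.44. Yl*YHM2* (YALI0B10736), a mitochondrial carrier that exports citrate, had 106 ± 14.7 CPM with 4NAG and 132 ± 1.47 CPM with the vector (log2 FC −0.31).

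The mutant libraries carry the same 4NAG plasmid, and levels on a scale set over all 12 libraries stand beside those of the wild type. Any comparison with the wild type shares the 4NAG libraries, so values only are given. Labels limit them: Yl*REP1* had 21.7, 11.3 and 68.8 CPM in the libraries labelled Yl*rep1*Δ, against 77.2, 81.8 and 90.9 CPM in the wild type with 4NAG, and Yl*NGS1* had 0.0517, 16.6 and 34.5 CPM in those labelled Yl*ngs1*Δ, against 71.5, 73.4 and 74.4 CPM. YALI0F02211, the reductase-like gene, had 7.82, 4.66 and 19.2 CPM in the libraries labelled Yl*rep1*Δ and 2.33, 5.86 and 20.2 CPM in those labelled Yl*ngs1*Δ, against 82.0 CPM with 4NAG and 33.1 CPM with the vector on average in the wild type. All 6 mutant libraries were thus below the vector. YALI0A12353, the formate dehydrogenase gene, had 48.1, 58.6 and 189 CPM in the libraries labelled Yl*rep1*Δ and 18.8, 39.8 and 56.3 CPM in those labelled Yl*ngs1*Δ, against 142 CPM with 4NAG and 209 CPM with the vector on average in the wild type. YALI0E22088 had 102, 153 and 699 CPM in the libraries labelled Yl*rep1*Δ and 10.8, 79.7 and 568 CPM in those labelled Yl*ngs1*Δ, against 386 CPM with 4NAG and 146 CPM with the vector on average in the wild type. The mutant libraries of this gene lay on both sides of the wild-type values. Yl*NAG5* had 1186, 1534 and 1341 CPM in the libraries labelled Yl*rep1*Δ and 1631, 1424 and 1236 CPM in those labelled Yl*ngs1*Δ. Its wild-type means were 859 CPM with 4NAG and 790 CPM with the vector. Yl*DAC1* had 641, 803 and 1416 CPM, then 580, 649 and 681 CPM, against 1330 and 1110 CPM. The paper reports very low reporter expression from both promoters in either mutant on GlcNAc. The plasmid's share of these levels was not tested.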

How the data were processed

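RNA-Seq libraries of wild-type cells with 4NAG or the empty vector, 3 each, were compared, and groups came from the sample labels. The authors deposited, for each gene, unnormalised counts and also FPKM, a value corrected for gene length. Tools named in the submitters' processing notes are Cufflinks 2.2.1 and TopHat2 2.1.1, with mm10, a mouse genome, as the build. Counting program, strand setting and annotation: not given in the sources used here. FPKM were used only to rank genes by level per length. Library depth, 18863469 to 22650213 counts, was even, and replicates differed by far more than counting noise (chi-square over its degrees of freedom 7.37 to 14.4), so no library was a duplicate.

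Counts were tested by the quasi-likelihood test of edgeR 4.0.16 (R 4.3.3) after TMM scaling and filterByExpr, with Benjamini-Hochberg adjusted p under 0.05. Same-numbered replicates deviated together (r = 0.11, 0.14 and 0.17 over 5410 genes with a mean of at least 100 counts), a pairing that rests on these correlations and not on the labels. The fit without the replicate block was kept as the main result. Alternatives were DESeq2 1.42.0, its size factors, no filter or a mean of at least 10 counts, all 12 libraries in 1 fit, the block, limma 3.58.1 (voom with sample quality weights), an unadjusted p and leaving out each replicate. The script was tested on simulated data.

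Genes and lists were chosen with earlier results of these data known. Named were the GlcNAc genes, all genes changed at least 2-fold, the 12 largest rises and falls with a mean count of at least 20 and no overlap, the 5 smallest p each way, and up to 5 called members each way of each list. Descriptions came from the study's tables, as 0 gene IDs matched the RefSeq table. No ribosomal protein gene was described (0 matched), so that list gave no result. A further list and the genes named through it are not reported here.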

Additional observations from a re-analysis of the deposited data

How the results depend on the processing

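Per setting, the genes called higher and lower at any fold were 423 and 342 by DESeq2, 470 and 368 with the replicate block, 0 and 0 in the fit of all 12 libraries, and 801 and 751 at an unadjusted p. Leaving out 1 replicate gave 211 to 392 higher and 88 to 352 lower genes. The lowest of both came without 4NAG replicate 2, and the lower genes also fell to 133, 173 and 114 without 4NAG replicate 3, vector replicate 2 and vector replicate 3. At 2-fold or more, 11 genes were higher, against 7 by DESeq2, which gave no adjusted p for the other 4, 0 in the fit of all 12 libraries, 26 at an unadjusted p and 8 to 12 without 1 replicate. The genes at least 2-fold lower were 0, against 4 at an unadjusted p and 0 to 3 without 1 replicate. The other settings stayed within 1.5 times of these counts. In the fit of all 12 libraries, the 5 formate dehydrogenase and 6 stress calls were lost as well, and 52 of the 57 named genes lost their call, while the other 5 had none. Elsewhere the formate dehydrogenase count stayed at 5 (8 at an unadjusted p) and the stress count at 5 or 6, both counted after seeing the data. The replicate block ended the calls of YALI0E09427 and YALI0F16511 and changed no other call of a named gene. Directions of named genes reversed only for uncalled genes: Yl*GIG1* (YALI0F04466) had a log2 fold change of −0.0021 with no filter and −0.034 to 0.049 without 1 replicate, and Yl*NDT80* (YALI0B14773) −0.18 to 0.045 without 1 replicate. Depth limits what can be called among genes with under 100 counts, of which few were.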
